A study of Mus musculus with 2 samples.

Results

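Foxp3, Ikzf2, Ikzf4, Izumo1r, Nt5e, Capg and Lrrc32 are genes known from regulatory T (Treg) cells, and they are described here in cells marked by past Il17a expression. They were chosen by symbol, 7 of the 32285 genes in the count tables, and all 7 were found. The cells were CD4+ YFP+ cells sorted from mice at the peak of experimental autoimmune encephalomyelitis (EAE), a model of multiple sclerosis induced by immunization with a myelin peptide (MOG) in complete Freund's adjuvant (CFA). The control library came from Il17Cre/R26YFP mice and the Id2-deficient library from Il17Cre/Id2f/f/R26YFP mice, so the groups share the Il17Cre driver, the YFP reporter and the immunization and differ in the floxed Id2 alleles. In this design Cre is made by cells that express Il17a, YFP then marks those cells and their progeny for good, and floxed Id2 is deleted from that point on. On the tissue the labels disagree: draining lymph node in the titles, spleen with lymph node in the source field, and spleen in the protocol. The number of mice and their age are not given in the sources used here. There was 1 library per genotype, so no difference between genotypes has a replicate check, and every interval below covers counting error only.

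Treg cells restrain immune responses, and their identity rests on the transcription factor Foxp3. Ikzf2 (Helios) and Ikzf4 (Eos) are Ikaros-family zinc finger factors that act with Foxp3, and Lrrc32 (GARP) holds latent TGF-beta on the surface of activated Treg cells. Izumo1r (folate receptor 4) is a surface protein of Treg cells, anergic T cells and T follicular helper (Tfh) cells, the CD4+ cells that help B cells and carry the chemokine receptor Cxcr5. Nt5e (CD73) is a surface enzyme that makes adenosine from AMP, and Capg is a protein that caps actin filaments and is found in many activated and myeloid cells. Id2 is an inhibitor of E proteins, transcription factors that bind the E-box CANNTG and favour Tfh over effector programmes.

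T-lineage cells numbered 4771 (control) and 1871 (Id2-deficient), and a cell held at the median 5461 and 6376 unique molecular identifiers (UMIs, one per captured RNA molecule). They were the cells left after barcodes with few genes or over 10% of UMIs from mitochondrial (mt-) genes, and clusters of B cell-like and neutrophil-like cells, were set aside. The labelled cell type was checked on its markers. Cd3d, a part of the T cell receptor complex, had a UMI in 98.8% of control and 99.0% of Id2-deficient cells, and Cd4 in 55.9% and 72.3%. Il17a itself was found in 2.81% and 1.92%, so few of the fate-marked cells carried its RNA. Trdc, a gamma delta receptor gene, was detected in 18.3% and 8.87%, which goes against a pure CD4+ sort. The libraries also stood apart in mt- RNA, with a median share of 1.75% (control) and 4.18% (Id2-deficient). Id2 stood at 338 UMIs per 1000000 (CPM) in the control and at 12.3 CPM where it was floxed, 27.5-fold lower, with Id2 UMIs left in 52 of the 1871 cells. The exons that are floxed are not given in the sources used here.

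In GRCm38 Foxp3 lies on chromosome X at 7573644-7595245 (plus strand), Ikzf2 on chromosome 1 at 69531214-69687245 (minus) and Ikzf4 on chromosome 10 at 128630843-128645991 (minus). Izumo1r (chromosome 9, 14885814-14903949, minus) and Nt5e (chromosome 9, 88327197-88372092, plus) share a chromosome but are far apart. Capg lies on chromosome 6 at 72544391-72562983 (plus) and Lrrc32 on chromosome 7 at 98489283-98502181 (plus). All 7 are protein-coding genes.

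Because Id2 acts on E proteins, the E-boxes just upstream of the 3 genes with the widest differences below that have an entry in the RefSeq promoter table (GRCm38.p6) are shown. Each line holds a CANNTG match found by script within the 250 bases before the start, in capitals, with up to 12 bases on each side in lower case, 5′ to 3′ on the gene's strand. CANNTG is its own reverse complement, so 1 search covers both strands.
Izumo1r, chr9:14903807-14903836, minus strand: ggcggctctccaCACCTGtagctcatagaa
Nt5e, chr9:88327362-88327391, plus strand: acgctgcccctgCAGTTGtcaccgccgccc
Capg, first match, chr6:72549397-72549421, plus strand: ggtggggCAGGTGggtggggcagcc
Capg, second match, chr6:72549573-72549602, plus strand: agggtccgggaaCAGGTGggaacggtgtcc
The Izumo1r match begins 57 bases before the start, the Nt5e match 235 bases and the Capg matches 243 and 62 bases before it. The Izumo1r, Nt5e and first Capg stretches overlap exons that GENCODE M21 annotates as untranslated in other transcripts of the same genes. The match in Izumo1r reads CAGGTG on the opposite strand, so Izumo1r and Capg, which differed in opposite directions below, hold the same hexamer. Of 32851 promoters in the table, 66.2% hold CANNTG in the same 250 bases, 17.2% hold CAGGTG on either strand and 2.06% hold it at least 2 times. A match is a description of letters and does not show binding. Of the members, 4 had an entry: Foxp3, Izumo1r, Nt5e and Capg. Foxp3, which did not differ between the libraries beyond its counting interval, also held CANNTG matches, which are not shown.

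Ikzf2, Izumo1r and Nt5e were more abundant in the Id2-deficient library and Capg was less abundant, while Foxp3 did not differ beyond its counting interval. Of 6 members measured (at least 50 UMIs over both libraries and 5 expected in the smaller), 3 were at least 1.5-fold higher and 1 was at least 1.5-fold lower. Over 11050 measured genes, 16.1% were higher and 9.71% lower by that fold, and the median log2 ratio was 0.08. Foxp3 stood at 2.95 CPM in the control (95 UMIs in 60 cells) and at 3.35 CPM in the Id2-deficient library (46 UMIs in 15 cells). Its log2 ratio, Id2-deficient over control, was 0.18 with a 95% interval of -0.36 to 0.70, so more than a 1.63-fold higher level lay outside the interval. A Foxp3 UMI was found in 0.80% of Id2-deficient cells (0.45% to 1.32%) and 1.26% of control cells (0.96% to 1.62%), and with every cell thinned to 1000 UMIs in 0.38% and 0.27%, so the shares gave no order. Foxp3-positive cells held 3.07 (Id2-deficient) and 1.58 (control) UMIs each. In cells with 2% to 3% of UMIs from mt- genes, a range that both libraries reach, the log2 ratio of Foxp3 was 1.96, on 17 against 14 UMIs. The 17 came from 4 of 228 Id2-deficient cells, 9 of them from 1 cell, and the 14 from 11 of 1320 control cells. The shares of cells with a UMI, 1.75% (0.48% to 4.43%) and 0.83% (0.42% to 1.49%), had intervals that overlap.

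Ikzf2 stood at 36.4 CPM in the control library, and 106 CPM in the Id2-deficient one, a log2 ratio of 1.54 (1.43 to 1.65). The share of cells with a UMI was 15.3% and 28.2%, and with every cell thinned to 1000 UMIs it was 4.03% and 9.23%. In cells of 2% to 3% mt- RNA its log2 ratio was 0.64. Its relative Ikzf4 was near the limit of detection, with 59 UMIs (1.83 CPM) in the control library, and 35 UMIs (2.55 CPM) in the Id2-deficient one. The log2 ratio of Ikzf4, 0.47, had an interval from -0.17 to 1.10. Lrrc32 had 5 and 2 UMIs in all and was not measured. The Treg surface anchor of TGF-beta was thus barely found in either genotype.

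Izumo1r had the largest ratio of the measured members over all T-lineage cells, but not without the gamma delta T cell-like cluster (1.83, against 2.07 for Ikzf2) or at 2% to 3% mt- RNA. It stood at 51.7 CPM in the control library, and 202 CPM in the Id2-deficient one, a log2 ratio of 1.97 (1.88 to 2.06), and the share of cells with a UMI went from 12.2% to 40.4%. Thinned to 1000 UMIs, the shares were 4.87% and 17.0%. In cells of 2% to 3% mt- RNA the difference was gone (93.9 CPM in control and 92.6 CPM in Id2-deficient cells, log2 ratio -0.02), and at 3% to 5% it turned (360 and 184 CPM). Cells with 5 or more Izumo1r UMIs numbered 93 of 4771 in the control library, and 220 of 1871 in the Id2-deficient one.

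Nt5e differed less, at 42.5 and 66.7 CPM, a log2 ratio of 0.65 (0.53 to 0.77). It turned in cells of 2% to 3% mt- RNA, at 54.1 and 38.3 CPM (-0.50, -0.84 to -0.16). Its RNA was in 21.2% of control and 30.04% of Id2-deficient cells. Capg went the other way, from 493 CPM in 72.0% of control cells to 235 CPM in 45.9% of Id2-deficient cells, a log2 ratio of -1.07 (-1.12 to -1.01), and of -0.34 in cells of 2% to 3% mt- RNA. In the B cell-like cluster set aside from the analysis, whose cells had a median of 3665 UMIs in the control, Izumo1r was found in 1.85%, Ikzf2 in 1.85% and Nt5e in 2.78% of 108 cells. The same cluster had Capg UMIs in 45.4% of control cells at 199 CPM, and in the Id2-deficient library at 287 CPM. Foxp3 was found in 0 of those 108 cells, which allows a share of up to 2.78% (3 counts of the total). That limit lies above the Foxp3 shares of T-lineage cells, so these cells do not bound the background of Foxp3.

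**Figure D1:**
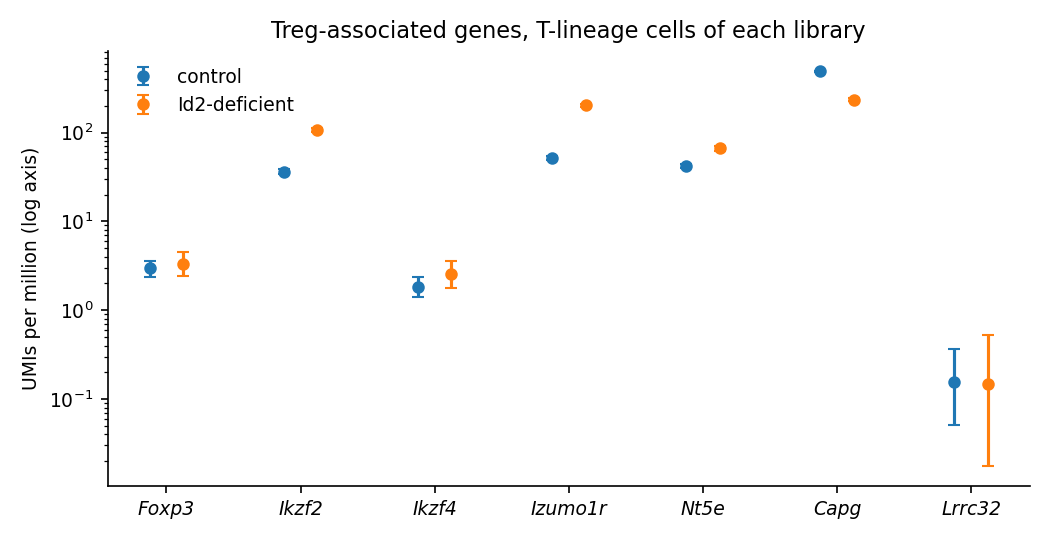
Level of each gene, on a log axis, as UMIs per 1000000 and summed over T-lineage cells of the control (blue) and Id2-deficient (orange) library, with 95% Poisson intervals (counting error only). Izumo1r stands at 51.7 in the control library, and 202 in the Id2-deficient one, Capg at 493 and 235, and the Foxp3 intervals overlap.

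Cells were next split by Foxp3 RNA to see which members went with it. In the control, 3 of 4 measured members were at least 1.5-fold higher in the 60 cells with a Foxp3 UMI than in the 4711 without (8.66% of 6896 measured genes were). Izumo1r was at 139 against 50.5 CPM (log2 ratio 1.46, 1.07 to 1.83), Nt5e at 107 against 41.6 CPM (1.37, 0.92 to 1.79) and Ikzf2 at 67.2 against 36.0 CPM (0.90, 0.33 to 1.42). Capg was at 710 against 490 CPM, a log2 ratio of 0.54 (0.37 to 0.70). Ikzf2 rested on 30 UMIs in 16 of the 60 cells. In the 20 control cells with at least 2 Foxp3 UMIs its log2 ratio was 0.13, and in the 11 Foxp3-positive cells with 2% to 3% of UMIs from mt- genes no Ikzf2 UMI was found. Without the gamma delta T cell-like cluster, which is rich in Ikzf2, it was 1.51.

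The Id2-deficient split held 15 Foxp3-positive cells, and again 3 of 4 measured members were at least 1.5-fold higher in them (14.4% of 2843 measured genes were). The members were not the same. Capg was at 902 against 230 CPM (log2 ratio 1.97, 1.66 to 2.27), Ikzf2 at 475 against 103 CPM (2.20, 1.76 to 2.61) and Nt5e at 161 against 66.0 CPM (1.29, 0.50 to 1.98). Izumo1r was at 228 against 202 CPM, a log2 ratio of 0.17 (-0.47 to 0.75). Of the UMIs in these 15 cells, 1 cell held 19 of the 50 for Ikzf2, and 1 cell held 25 of the 95 for Capg. Ikzf4 had 7 UMIs in 5 of the 15 cells and 28 UMIs in the other 1856 cells, so 20% of its molecules lay in the Foxp3-positive cells. In the control only 2 of its 59 UMIs did.

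Other genes of the Treg programme were read in the same Foxp3 split, from a list chosen with earlier results of these data known. Of 22 listed genes 9 were measured in the control library. In Foxp3-positive cells 7 of them were at least 1.5-fold higher and 0 lower, where 8.66% and 11.4% of 6896 measured genes were. The median log2 ratio of the 9 was 1.15 against 0.02 over all genes. The highest was Ctla4, an inhibitory receptor that Treg cells use to limit costimulation, at 179 against 28.1 CPM (log2 ratio 2.67, 2.32 to 3.0). Of the measured genes Nrp1 was lowest (0.13, -0.66 to 0.82). Among all genes of the list with at least 50 control UMIs the lowest was Ebi3, which was not among the measured ones, a subunit of interleukin 27 and interleukin 35, with 1 UMI in Foxp3-positive cells and a ratio of -0.04 whose interval ran from -5.36 to 2.48. In the Id2-deficient library, with 15 Foxp3-positive cells, only 4 of the 22 genes were measured. All 4 were at least 1.5-fold higher, where 14.4% of 2843 measured genes were. No cluster took the Treg name. Foxp3-positive control cells fell mainly into the Th17-like (25 cells) and naive or central memory-like (20 cells) clusters, and 10 of the 15 Id2-deficient ones into Tfh-like cluster 1. That cluster held 45.6% of all Id2-deficient and 7.11% of all control T-lineage cells.

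The split by Cxcr5 separated the members in another way. In the control, Izumo1r, Ikzf2 and Nt5e were at least 1.5-fold higher in the 272 cells with a Cxcr5 UMI than in the 4499 without, and Capg was lower (3 of 4 measured members higher and 1 lower, where 13.5% and 10.2% of 9502 measured genes were). Izumo1r was at 311 against 38.1 CPM (log2 ratio 3.03, 2.87 to 3.18) and was found in 55.1% against 9.60% of cells. Ikzf2 was at 99.1 against 33.1 CPM (1.58, 1.33 to 1.82), and Nt5e at 76.6 against 40.7 CPM (0.91, 0.63 to 1.18). Capg was at 144 against 511 CPM (-1.83, -2.02 to -1.64). The median depth was 4477 UMIs in cells with and 5498 in cells without a Cxcr5 UMI, and the median mt- share 2.26% and 1.73%.

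Of the Id2-deficient cells, 580 had a Cxcr5 UMI and 1291 did not. Of the 4 measured members 2 were at least 1.5-fold higher in the first and 1 lower (7.9% and 5.94% of 9486 measured genes were). Izumo1r was at 311 against 147 CPM (log2 ratio 1.08, 0.97 to 1.19), Ikzf2 at 170 against 73.9 CPM (1.20, 1.05 to 1.35) and Capg at 103 against 302 CPM (-1.55, -1.70 to -1.41). Nt5e was at 78.0 against 61.0 CPM, a log2 ratio of 0.35 (0.16 to 0.55). Within cells of 2% to 3% mt- RNA these ratios were closer to 0 or turned for 3 of the members: 0.12 for Izumo1r, 0.43 for Ikzf2 and -0.68 for Nt5e (-1.77 for Capg). That window held 228 Id2-deficient cells, and its part in the result was not tested.

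Foxp3 and Cxcr5 RNA were found together in 1 of the 60 Foxp3-positive control cells and 2 of the 15 Id2-deficient ones. Those 2 Id2-deficient cells held 7 of the 46 Foxp3 UMIs, 3 of the 7 Ikzf4 UMIs of Foxp3-positive cells and, in 1 of them, 19 of the 50 Ikzf2 UMIs. The levels were therefore also read with such cells apart. In the control, Nt5e was at 106 CPM in cells with Foxp3 alone, 76.1 CPM in cells with Cxcr5 alone and 39.8 CPM in cells with neither. Capg was at 715 CPM with Foxp3 alone, 508 CPM with neither and 144 CPM with Cxcr5 alone. Izumo1r had the reverse order at the top, with 311 CPM in cells with Cxcr5 alone, 138 CPM with Foxp3 alone and 36.7 CPM with neither. Ikzf2 was at 99.2 CPM with Cxcr5 alone, 67.6 CPM with Foxp3 alone (interval 45.6 to 96.5 CPM) and 32.6 CPM with neither.

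The same order held in the Id2-deficient library for Capg (947 CPM with Foxp3 alone, 295 CPM with neither, 101 CPM with Cxcr5 alone) and for Nt5e (185 CPM with Foxp3 alone, 78.2 CPM with Cxcr5 alone, 59.8 CPM with neither). Izumo1r was at 312 CPM with Cxcr5 alone and 250 CPM with Foxp3 alone, the second with an interval of 159 to 376 CPM that holds the first. Ikzf2 was at 337 CPM with Foxp3 alone (13 cells), 166 CPM with Cxcr5 alone and 71.2 CPM with neither. Capg was thus highest with Foxp3 alone and lowest with Cxcr5 alone in either genotype, while Izumo1r and Ikzf2 were highest with Cxcr5 alone in the control. In the control Foxp3 split Capg stayed under the 1.5-fold mark, at 1.45-fold. The gamma delta T cell-like cluster of the control had more Capg, 944 CPM, with Foxp3 in only 1 of 832 cells. That cluster held 32.2% of control Capg UMIs and so raises the level on the side without a Foxp3 UMI. The Capg ratio of this split without that cluster is not given here.

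**Figure D2:**
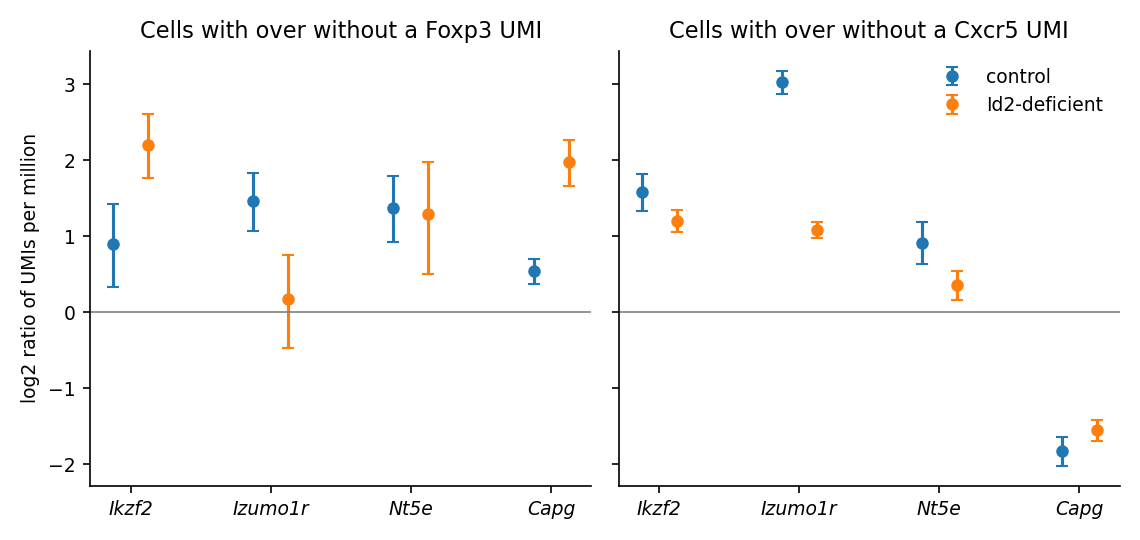
Log2 ratio of CPM in cells with over cells without a Foxp3 UMI (left) and a Cxcr5 UMI (right), in the control (blue) and Id2-deficient (orange) library, with exact 95% intervals (counting error only); the grey line marks no difference. Capg lies above the line on the left and below it on the right (-1.83 and -1.55), while Izumo1r reaches 3.03 on the right in the control.

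Tfh genes were read in the same Cxcr5 split. Of 18 listed genes besides Cxcr5, 17 were at least 1.5-fold higher in Cxcr5-positive control cells (13.5% of all measured genes were), with a median log2 ratio of 2.59. In the Id2-deficient library 13 of the 18 were (7.9% of all measured genes), with a median of 1.06. The highest in the control was Cebpa (4.07, 3.51 to 4.63), a transcription factor, and the lowest Maf (0.37, 0.26 to 0.49), a factor shared by Tfh and Th17 cells. Genes linked to T cell anergy, a state in which Izumo1r and Nt5e are also known, went less uniformly with Cxcr5. Of 9 measured, 3 were higher and 1 lower in the control (13.5% and 10.2% of all measured genes were), with a median of 0.31 against 0.10 over all genes. Egr2, a factor induced by receptor signalling, stood highest (2.36, 1.74 to 2.94), and Nrp1, a semaphorin receptor also carried by thymic Treg cells, lowest (-0.79, -1.34 to -0.29). In the Id2-deficient library 1 of 9 was higher and 0 lower (7.9% and 5.94% of all measured genes were). The median there was 0.01 against 0.09 over all genes.

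The share of cells with Cxcr5 went up with the number of Izumo1r UMIs in a cell. In the control it was 2.91% of cells with no Izumo1r UMI, 17.6% with 1, 30% with 2 to 4 and 35.5% with 5 or more, at median depths of 5557, 4608, 4413 and 4916 UMIs. Among Id2-deficient cells the shares were 19.5%, 38.1%, 49.7% and 55.9%. Depth did not go up with them in the control. For Capg the shares went down, from 15.0% of control cells with no Capg UMI to 1.04% of those with 5 or more, although the latter were deeper (7099 against 4504 UMIs). Ikzf2 gave 4.70% of control cells without it and 21.1% of those with 5 or more, but these were 4 of 19 cells (6.05% to 45.6%), and depth went up with Ikzf2 (5416 and 8719 UMIs).

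The members overlapped in single cells unevenly. In the Id2-deficient library 60.2% of Ikzf2-positive cells also had Izumo1r, against 32.6% of cells without Ikzf2, and 54.1% of Nt5e-positive cells had it against 34.4%. Capg was found in 29.1% of Izumo1r-positive cells and 57.3% of Izumo1r-negative cells there, and in 29.2% and 77.9% in the control. Izumo1r and Capg thus marked largely separate cells in either library.

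Comparing genotypes within a gate gave different answers for different members. Among cells with a Cxcr5 UMI, Izumo1r was 311 CPM in either library (log2 ratio 0.00, -0.15 to 0.15) and Nt5e 78.0 against 76.6 CPM (0.03, -0.27 to 0.33). Ikzf2 was still higher in the Id2-deficient cells, at 170 against 99.1 CPM (0.78, 0.53 to 1.03), the only 1 of 4 measured members past 1.5-fold there (9.05% of 8101 measured genes were higher and 6.26% lower). Capg was at 103 against 144 CPM (-0.48, -0.71 to -0.25).

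Among cells without a Cxcr5 UMI, Izumo1r stood at 147 against 38.1 CPM (log2 ratio 1.95, 1.84 to 2.07) and Ikzf2 at 73.9 against 33.1 CPM (1.16, 1.01 to 1.3). These were 2 of 6 measured members at least 1.5-fold higher, and Capg was lower, at 302 against 511 CPM (-0.76, -0.82 to -0.70), where 14.3% and 9.49% of 10815 measured genes were higher and lower. Nt5e lay at the threshold (0.58, 0.44 to 0.73). A cell without a Cxcr5 UMI need not lack the receptor, since 31.0% of Id2-deficient cells had a UMI but only 6.87% did at 1000 UMIs. In cells with none of Cxcr5, Bcl6, Pdcd1 and Il21 the log2 ratios were 1.90 for Izumo1r, 0.73 for Ikzf2, 0.51 for Nt5e and -0.65 for Capg.

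By cluster, the members had distinct places. The members, Cxcr5 and Id2 were kept out of the genes used for clustering, but Izumo1r was among the 10 leading genes of the 2 Tfh-like clusters and Ikzf2 of the second, so levels between clusters are a description. The Tfh name of cluster 1 rests on 5 of the Tfh markers among its 50 leading genes and on only 1, Slamf6, among the first 10, which also held Id3, Cd27 and Myb, genes known from memory T cells too. Cxcr5 was found in 25.7% of its control cells, against 46.6% in cluster 5. Izumo1r in the control was highest in Tfh-like cluster 5 (732 CPM), then Tfh-like cluster 1 (328 CPM) and the naive or central memory-like cluster (97.1 CPM). It was 23.1 CPM or lower in the other T-lineage clusters and lowest in the gamma delta T cell-like one (1.48 CPM, 0.72% of 832 cells at a median of 5648 UMIs). The intervals of the first 3 do not overlap. The Tfh-like clusters held 67.1% of Izumo1r UMIs in the control library, and 87.6% in the Id2-deficient one. Of the UMIs of all genes they held 7.43% and 52.6%, and of T-lineage cells 10.8% and 58.7%.

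Ikzf2 had a second site. In the control it reached 211 CPM in Tfh-like cluster 5 and 93.7 CPM in the gamma delta T cell-like cluster, which held 43.2% of all its control UMIs. The gamma delta T cell-like cluster held 17.4% of control T-lineage cells. Ikzf2 was 58.8 CPM in Tfh-like cluster 1, and lowest at 5.24 CPM in the Th1 and cytotoxic-like cluster. Leaving out the gamma delta T cell-like cells moved its log2 ratio between libraries from 1.54 to 2.07. Nt5e was highest in Tfh-like cluster 5 (147 CPM) and between 16.0 and 72.2 CPM in the other control clusters. Capg was highest in the gamma delta T cell-like cluster (944 CPM), 523 CPM in the Th17-like cluster and 43.7 CPM in Tfh-like cluster 5, below its 199 CPM in B cell-like cells.

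**Figure D3:**
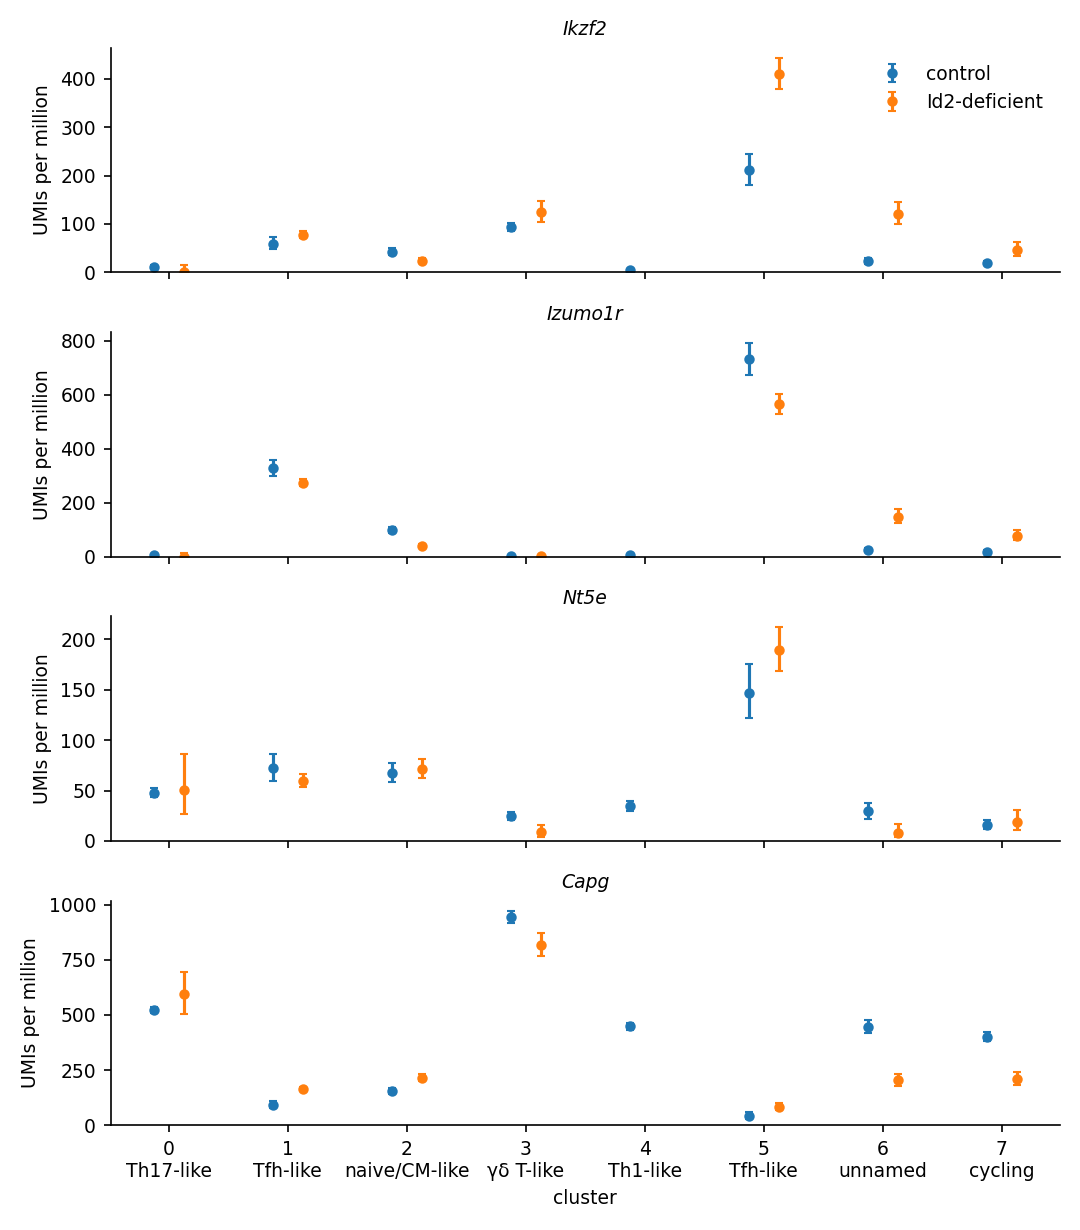
CPM of Ikzf2, Izumo1r, Nt5e and Capg (rows, each axis from 0) in the 8 T-lineage clusters of the control (blue) and Id2-deficient (orange) library, with 95% Poisson intervals; points need at least 30 cells. Izumo1r is highest in the Tfh-like clusters (732 and 328 in the control), and Capg in the gamma delta T cell-like cluster (944).

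Within clusters the difference between genotypes was often smaller or opposite. In Tfh-like clusters 1 and 5 Izumo1r was lower in Id2-deficient cells (log2 ratios -0.26, -0.41 to -0.12, and -0.37, -0.52 to -0.22), and in the naive or central memory-like cluster it was 40.8 against 97.1 CPM (-1.25, -1.55 to -0.95). It was higher in the unnamed cluster led by Il22 and Il17f (148 against 23.1 CPM) and in the cycling cluster (77.1 against 18.5 CPM). Cxcr5 was also higher there, at 95.2 against 10.8 CPM and 48.0 against 2.99 CPM, and the unnamed cluster's median depth was 14575 against 6057 UMIs. In the unnamed cluster 1 of the 60 Id2-deficient cells held 51 of the 142 Izumo1r UMIs. Capg, lower in the whole library, was higher in Id2-deficient cells of clusters 1 (165 against 93.9 CPM), 5 (85.0 against 43.7 CPM) and 2 (215 against 157 CPM). It was lower in Id2-deficient cells of the unnamed cluster (204 against 448 CPM), the cycling cluster (211 against 401 CPM) and the gamma delta T cell-like cluster (817 against 944 CPM). The levels in clusters 1, 5 and 2 are near or under the level in B cell-like cells. In cluster 5 of the Id2-deficient library, 1 of 244 cells held 39 of the 134 Capg UMIs. Ikzf2 was higher in cluster 5 at 409 against 211 CPM (log2 ratio 0.95, 0.71 to 1.20) and in the gamma delta T cell-like cluster at 124 against 93.7 CPM (0.41, 0.13 to 0.68), but lower in the naive or central memory-like cluster (-0.81, -1.24 to -0.40).

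Foxp3 by cluster was uneven. In the control it was found in 3.13% of naive or central memory-like cells, 1.80% of Th17-like cells and 0.12% of gamma delta T cell-like cells. In the Id2-deficient library 28 of its 46 UMIs were in 10 of 854 cells of Tfh-like cluster 1, against 1 UMI in 339 control cells of that cluster. Cluster 5 had none in 176 and 244 cells.

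Detection of Id2 varied between control cells, and the members varied with it. A cell without an Id2 UMI need not lack Id2, and such cells were shallower (median 4695.5 against 5851 UMIs). They also differed in cell type, with Cxcr5 at 35.4 CPM without and 3.77 CPM with an Id2 UMI. Id2 was found in 24.8% and 16.5% of control cells of Tfh-like clusters 1 and 5. In the Th17-like and the Th1 and cytotoxic-like clusters it was in 76.3% and 88.1%. The parts of depth and cell type were not tested. In control cells without an Id2 UMI (1564 cells) Izumo1r was at 140 CPM, against 21.1 CPM in the 3207 with one, and Foxp3 at 5.19 against 2.18 CPM. Ikzf2 was at 52.4 against 30.9 CPM and Nt5e at 61.2 against 36.0 CPM. Capg was higher with Id2, at 557 against 307 CPM. Of the 6 members measured 4 were thus at least 1.5-fold lower in cells with an Id2 UMI and 2 higher (6.65% and 6.93% of 10512 measured genes were), the other being Ikzf4, with 50 UMIs against 9 and a log2 ratio of 0.95 (-0.09 to 2.16). The 52 Id2-deficient cells that kept Id2 UMIs had 29.0 CPM of Izumo1r, against 208 CPM in the rest, and 375 against 230 CPM of Capg. These cells differed in cell type from the rest as well. They were 6 of 854 and 0 of 244 cells in Tfh-like clusters 1 and 5, but 10 of 35 Th17-like cells. They also included 11 of 136 gamma delta T cell-like and 15 of 490 naive or central memory-like cells. The part of cell type in this contrast was not tested either. Against control cells without an Id2 UMI, Id2-deficient cells without one had log2 ratios of 0.57 (0.47 to 0.67) for Izumo1r, 1.04 (0.88 to 1.20) for Ikzf2 and 0.15 (-0.01 to 0.31) for Nt5e. That for Capg was -0.41 (-0.49 to -0.34), and that for Foxp3 -0.72 (-1.36 to -0.07). Of 5 measured members 1, Ikzf2, was at least 1.5-fold higher there and 1, Foxp3, lower (11.4% and 5.23% of 10157 measured genes were).

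Mitochondrial RNA moved with the members. In the control Izumo1r went from 28.1 CPM in cells under 2% mt- RNA to 93.9 CPM at 2% to 3% and 360 CPM at 3% to 5%, and Cxcr5 from 4.84 to 25.8 and 84.7 CPM. Capg went from 528 to 415 and 171 CPM. In the Id2-deficient library Izumo1r was at 92.6 CPM at 2% to 3% (228 cells), 184 CPM at 3% to 5% and 348 CPM at 5% to 10%. At 2% to 3%, where 1320 control cells lay, the log2 ratio between libraries was -0.02 (-0.25 to 0.20) for Izumo1r and -0.50 (-0.84 to -0.16) for Nt5e. It was 0.64 (0.38 to 0.89) for Ikzf2 and -0.34 (-0.45 to -0.22) for Capg. The window held 44.1% of the Tfh-like cells of the control and 8.29% of those of the Id2-deficient library, so it does not draw like cells from each. At 3% to 5% Izumo1r was lower in the Id2-deficient cells, at 184 against 360 CPM. The part of mt- RNA in the ratios of the whole libraries was not tested.

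**Figure D4:**
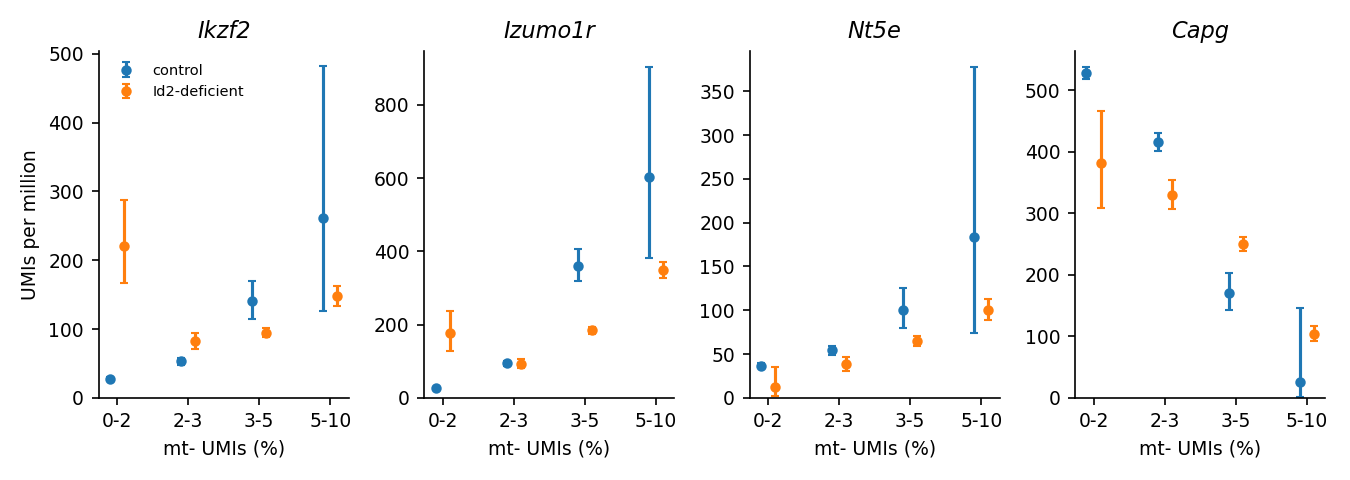
CPM of 4 genes (each axis from 0) by the share of a cell's UMIs from mt- genes (0-2%, 2-3%, 3-5% and 5-10%) in the control (blue) and Id2-deficient (orange) library, with 95% Poisson intervals. Izumo1r goes up and Capg down along the axis in the control (28.1 to 360 and 528 to 171 over the first 3 bins), and in the 2-3% bin Izumo1r is alike in the libraries (93.9 and 92.6).

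The genes most like each member over 13 sums by cluster and library of at least 50 cells were found among 7118 genes. The 13 points share cell types and 2 libraries, and the values are descriptions. Izumo1r was most like Tox2, a factor of Tfh cells (Pearson r 0.98), with Dennd2d and Rnf19a (0.98 each). Ikzf2 was most like Bcor, a corepressor that binds Bcl6 (0.94), then Rasa2 and Ptk2b (0.93 each). Nt5e was most like Nup153 and Rsf1 (0.94 each) and AU041133 (0.93). Capg was most like Serpinb1a, a protease inhibitor (0.97), Actn2, an actin crosslinker (0.97), and Dennd5a (0.97). Between members, Izumo1r and Capg had r = -0.96 and Izumo1r and Ikzf2 0.61.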

How the data were processed

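Each library gave 1 deposited table of counts, UMI counts per gene and barcode, written by Cell Ranger 5.0.1 per the file headers and 1.3 per the submitters' processing notes, on mm10 per those notes. How the deposited barcodes were selected is not stated in the labels or headers. The tables held 33646845 and 14668624 UMIs in 4937 control and 2459 Id2-deficient barcodes (3 sequences in both). Barcodes with under 200 genes or over 10% mt- UMIs were removed (12 and 525). Scrublet marked 5 and 8 cells, too few to have worked, so doublets were largely kept.

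Clusters came from both libraries together (scanpy 1.11.5, leidenalg 0.10.2, Python 3.11.15): 10000 counts per cell, log, 2000 variable genes without the members, Cxcr5 and Id2, 30 components, 15 neighbours, resolution 0.8. This gave 10 clusters, named from fixed markers; B cell-like and neutrophil-like ones were left out (149 and 55 cells). UMIs were summed over cells and divided by summed totals. Ratios have exact conditional binomial intervals, CPM exact Poisson and shares Clopper-Pearson intervals, all 95%. A count of 0 was given a floor of 3 UMIs. No test was run, since each genotype has 1 library. The ratio was tested on simulated data for the comparison of libraries (11050 genes), where intervals held the true value for 95.8% of unchanged genes and for 90.7% of the 54 genes with a true log2 ratio of 2 (98.1% at 1, 100% at -1, 95.9% at -2). Those sums were drawn as Poisson counts, the model behind the intervals, so coverage near 95% was built in. They hold no clumping of UMIs in single cells or cell types, so this checks the calculation and not the spread in these data.

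The members and lists were chosen with earlier results of these data known. Named genes were the members, Cxcr5, Id2, the 3 genes most like each member of at least 500 UMIs, and of each list its highest and lowest ratio in the control split, among genes with at least 50 UMIs. Bcl6, Pdcd1 and Il21 appear as gates, and Il10 was chosen after its values were seen. Alternatives tried numbered 15.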

Additional observations from a re-analysis of the deposited data

Results flagged for a closer look

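The 525 Id2-deficient barcodes over the mt- limit were outside all comparisons and held UMIs of 4 members above what a count of 0 allows (5.58 CPM). Ikzf2 was at 219 CPM, Nt5e at 123 CPM, Izumo1r at 83.6 CPM and Capg at 55.8 CPM. Foxp3, Ikzf4 and Lrrc32 had no UMI there. Only 3 control barcodes passed the limit, so there is no like set in the control.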

How the results depend on the processing

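No paired analysis was possible because each genotype has 1 library. Of the alternatives, 13 were planned and 2, leaving out the gamma delta T cell-like cluster and leaving out shared barcodes, were chosen after seeing the data. Setting the gates at 2 or more UMIs moved 7 results and left 17 the same. Gating on thinned counts moved 9 and left 15 the same. In cells with 2% to 3% mt- UMIs the log2 ratio between libraries turned for Izumo1r (-0.019) and Nt5e (-0.50). It was -0.34 for Capg, 0.64 for Ikzf2 and 1.96 for Foxp3 (17 UMIs in 4 cells against 14 UMIs in 11 cells). Nt5e also turned among cells without a Cxcr5 UMI (-0.23) and in the Id2-deficient Cxcr5 split (-0.68), and Ikzf2 in the control Foxp3 split (-0.44, a bound, with no UMI in 11 cells). In that window 0 members were higher (15.3% of all genes measured were) and 2 lower (18.3%) in the Id2-deficient Cxcr5 split, and 0 were lower between libraries over all cells (14.6%) and over cells without a Cxcr5 UMI (13.6%); the cause was not tested. With at most 5% mt- UMIs the ratios between libraries were 1.69 for Izumo1r, 1.395 for Ikzf2, 0.45 for Nt5e and -0.87 for Capg. With cells thinned to 1000 UMIs they were 1.84, 1.38, 0.84 and -1.22, with 0.83 for Foxp3 and -0.64 for Ikzf4, whose direction turned on few UMIs; 4 members were then higher among cells without a Cxcr5 UMI (18.9% of all genes measured were), 1 in the control Foxp3 split (21.9%), 2 were lower between libraries (13.8%) and 1 in the Id2-deficient Foxp3 split (11.1%). As a mean over cells they were 1.64, 1.41 and, for Capg, -1.17. Capg was -1.0 without mt- and ribosomal protein genes in the denominator and -1.15 relative to the median gene. Without the gamma delta T cell-like cluster they were 1.83 for Izumo1r, 2.07 for Ikzf2 and -1.13 for Capg. Among cells without a Cxcr5 UMI 4 members were higher without that cluster (15.4% of all genes) and without mt- and ribosomal genes (17.8%). Removing the 4% of cells with the highest doublet scores or the top cell of each gene moved no ratio between libraries beyond its interval. Foxp3, Ikzf4 and Lrrc32 had the fewest UMIs of the members, 5 to 95 in the control and 2 to 46 in the Id2-deficient library, which leaves their intervals wide.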

Other observations

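Il10, a cytokine of Treg and other T cells, had 26 UMIs in the Id2-deficient library, 24 of them in Foxp3-positive cells, and all 24 came from 1 cell. The control had 1 Il10 UMI in all. Il2ra, the high-affinity interleukin 2 receptor chain, had 49 of its 330 Id2-deficient UMIs in the 15 Foxp3-positive cells, where 11 of 15 carried it, and 54 of 1070 in the 60 control ones, where 31 carried it. Socs2 and Swap70, both on the list of Treg markers, were less abundant without Id2 (log2 ratios -1.88, -2.09 to -1.67, and -1.86, -2.43 to -1.34), whereas Rgs16 and Cd83 of the same list were higher (2.49, 2.27 to 2.71, and 2.15, 1.73 to 2.58). They were chosen after their values were seen. Socs2 was among the 10 leading genes of the Th17-like cluster, which held 29.1% of control and 1.87% of Id2-deficient T-lineage cells. Rgs16 was among those of Tfh-like cluster 5, with 3.69% and 13.0%. The part of cell type in these ratios was not tested. Of the list's 18 measured members, 7 exceeded 1.5-fold upwards and 4 downwards, and the median log2 ratio was 0.31, where 16.1% of all 11050 measured genes were higher, 9.71% lower, and the median was 0.08.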
